A study of Mus musculus with 32 samples.

Results

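Each antibody chain begins with a stretch copied from 1 variable gene, and these genes lie in 3 clusters that serve the heavy chain (Ighv), the kappa light chain (Igkv) and the lambda light chain (Iglv). The tables held 348 such genes among 54446, and the 123 described here are those whose counts summed to 50 or more over 32 tumour libraries: 51 of 185 Ighv, 69 of 160 Igkv and all 3 Iglv genes. Another 122 had 1 to 49 counts, and the remainder had no count in any library. The 123 genes held 49735 of the 51358 variable-gene counts, or 96.8%. The genes were chosen by their summed counts, so their presence is not a result. Igkv5-45 (50 counts), Ighv1-14 (50) and Ighv1-26 (53) lay just inside the limit, and Igkv4-69 (47), Igkv12-38 (46) and Igkv1-133 (46) just outside it.

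The libraries came from tumours of BNL-MEA, a mouse liver cancer line, grown in Balb/c mice with an intact immune system, 1 library per tumour. The age of the mice is not given in the labels. There were 3 experiments, each with its own vehicle group. In the dose experiment, 4 mice received vehicle, 3 a low dose of regorafenib (5 mg/kg/day) and the other 3 a high dose (20 mg/kg/day). In the DC-101 experiment, 4 received vehicle, 3 low dose regorafenib and 3 the antibody DC-101, which blocks the VEGF receptor VEGFR2, at 800 ug into the peritoneum on days 1, 3 and 5. In the anti-PD1 experiment, groups of 3 received vehicle, low dose regorafenib, anti-PD1 or low dose regorafenib with anti-PD1 (combination). Regorafenib is an oral multikinase inhibitor, and anti-PD1 antibodies block an inhibitory receptor of T cells. Each mouse carried a tumour of the same line, and tumour, host liver and infiltrating cells were sequenced together. A library held 16767130 to 27693689 counts over all genes, so the counts of single variable genes, often below 10, limit every comparison. Nothing in the labels ties replicates to litters, so p-values measure the spread between these tumours.

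A developing B cell joins 1 variable gene to short D and J segments for the heavy chain and 1 variable gene to a J segment for the light chain, and all its descendants carry that choice. The variable genes read in a tissue therefore reflect which B cells and plasma cells are there. Plasma cells, the antibody-secreting stage, hold far more immunoglobulin messenger RNA per cell than resting B cells, so a few of them can dominate the counts. In whole tissue, fewer cells and less RNA per cell cannot be told apart.

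The 123 genes lay, in GRCm38, on chromosome 12 between 113588267 and 115912776 (Ighv), on chromosome 6 between 67609713 and 70704177 (Igkv) and on chromosome 16 between 19085017 and 19260859 (Iglv). The annotation named 120 of them functional variable genes and 3 pseudogenes (Ighv3-2, Ighv4-2 and Ighv1-14, with 1.38% of the counts), in 32 families. Ighv genes took 24.7% of the counts, Igkv genes 69.2% and Iglv genes 6.08%. Many variable genes are near copies of each other. Of the 123, 46 shared at least 1 stretch of 100 bases with another variable gene, and the highest share of such stretches was 55.8%, in Igkv6-20. Only reads that aligned to 1 place were counted, and how many reads of these genes were lost was not tested. The reference is the C57BL/6J genome while the hosts were Balb/c, so a read can be assigned to the closest C57BL/6J relative of the true gene. Gene names below are therefore those of the assignment.

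The next 4 sequences are the last 240 coding bases (of the last exon, coding strand, 5′ to 3′, GRCm38) of 2 pairs of near relatives among the leading light chain genes, with the bases that differ within each pair in capitals. They show how few positions separate the genes whose values are compared below. Iglv1 (chr16:19085017-19085256, minus strand) and Iglv2 (chr16:19260401-19260640, minus strand) had 96.9% of 351 coding bases in common, and 6 of their 11 differences lie in the part shown.
Iglv1: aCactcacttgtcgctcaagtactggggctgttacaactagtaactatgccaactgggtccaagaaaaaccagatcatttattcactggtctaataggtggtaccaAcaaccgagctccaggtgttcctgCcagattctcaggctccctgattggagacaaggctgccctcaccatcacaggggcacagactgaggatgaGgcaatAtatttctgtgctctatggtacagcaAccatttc
Iglv2: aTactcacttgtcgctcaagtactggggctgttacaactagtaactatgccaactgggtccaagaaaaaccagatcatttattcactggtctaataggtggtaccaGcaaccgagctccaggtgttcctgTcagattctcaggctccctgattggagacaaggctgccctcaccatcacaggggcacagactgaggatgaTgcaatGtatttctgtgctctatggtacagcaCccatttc
Igkv10-96 (chr6:68631963-68632202, minus strand) and Igkv10-94 (chr6:68704508-68704747, minus strand) had 95.4% of 347 coding bases in common, and all 16 differences lie in the part shown.
Igkv10-96: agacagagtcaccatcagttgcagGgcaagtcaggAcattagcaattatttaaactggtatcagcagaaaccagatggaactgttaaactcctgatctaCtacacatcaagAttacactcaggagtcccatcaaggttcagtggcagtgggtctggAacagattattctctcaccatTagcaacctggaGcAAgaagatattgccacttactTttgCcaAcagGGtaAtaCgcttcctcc
Igkv10-94: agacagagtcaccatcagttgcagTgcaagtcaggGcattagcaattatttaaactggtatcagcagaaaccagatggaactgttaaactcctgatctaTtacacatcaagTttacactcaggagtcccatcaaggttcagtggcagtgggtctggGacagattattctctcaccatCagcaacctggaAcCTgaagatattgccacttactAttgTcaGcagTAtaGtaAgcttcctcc

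Ighv11-2 (chr12:114048241-114048480, minus strand) and Igkv14-126 (chr6:67896403-67896642, plus strand) were the leading heavy and kappa genes of the library with the most counts, and are shown for that reason. Capitals mark the last in-frame cysteine codon, after which the variable gene is joined to the next segment. Together these genes are known to encode a receptor for phosphatidylcholine that is common among B-1a cells, a self-renewing B cell type of the body cavities.
Ighv11-2: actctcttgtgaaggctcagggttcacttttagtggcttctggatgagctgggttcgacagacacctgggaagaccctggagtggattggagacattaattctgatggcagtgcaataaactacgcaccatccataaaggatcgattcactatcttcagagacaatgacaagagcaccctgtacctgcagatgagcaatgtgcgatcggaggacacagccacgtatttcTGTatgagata
Igkv14-126: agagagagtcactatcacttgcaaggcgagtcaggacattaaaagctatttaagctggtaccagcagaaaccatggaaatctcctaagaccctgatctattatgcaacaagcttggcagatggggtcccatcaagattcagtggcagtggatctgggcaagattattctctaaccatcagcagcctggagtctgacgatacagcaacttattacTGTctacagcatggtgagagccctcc

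High dose replicate 2 of the dose experiment stood apart from the other 31 libraries. It held 36094 of the 49735 counts, or 72.6%, and was the highest library for 106 of the 123 genes. For 81 genes it held more than 50% of all counts, and 84 genes would reach a sum of 50 without it. Sums over all libraries are therefore close to a description of this tumour, and values below are given per library or without it. Igkv14-126 had 7827 counts in it, which was 30.8% of its Igkv counts against 2.82% in the other 31 libraries together. Ighv11-2 had 2080 counts, which was 24.3% of its Ighv counts against 1.10% in the other 31. Ighv5-4 had 741 counts, 8.64% of its Ighv counts against 1.32%. Other leading genes differed less in share. Ighv10-1 took 5.25% of Ighv counts there and 1.40% elsewhere, Ighv2-9 5.99% and 4.74%, and Ighv7-3 6.31% and 6.98%. Of the Igkv counts, Igkv10-96 took 10.8% there and 9.48% elsewhere, Igkv10-94 4.25% and 2.42%, Igkv8-24 3.58% and 1.80%, and Igkv1-110 3.27% and 3.52%. Iglv1 took 62.4% of Iglv counts there and 44.1% elsewhere.

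Ighv11-2 had few counts in the other libraries. It had 12 counts in high dose replicate 1, 9 in anti-PD1-experiment low dose replicate 2, 8 of 405 variable-gene counts (1.98%) in combination replicate 2, 5 in combination replicate 3, 4 in DC-101 replicate 3 and 1 count in each of 3 further libraries. Its near relative Ighv11-1 had 95 counts in high dose replicate 2. Igkv14-126 was more widespread, with a count in 18 of the other 31 libraries: 67 in high dose replicate 1, 55 in low dose replicate 2 and 43 and 41 in combination replicates 2 and 3 of the anti-PD1 experiment, 15 in DC-101 replicate 3 and 5 or fewer elsewhere. The 5 libraries with 4 or more Ighv11-2 counts beside high dose replicate 2 were also the 5 next highest for Igkv14-126. Of another known phosphatidylcholine receptor pair, Ighv12-3 with Igkv4-91, only the light chain gene had its most counts in high dose replicate 2. Ighv12-3 had 3 counts in high dose replicate 2 and 18 in DC-101-experiment vehicle replicate 1, where it ranked just behind Igkv1-135 (27 counts) and ahead of Igkv4-91 (15 counts). Igkv4-91 had 269 counts in high dose replicate 2 and at most 51 elsewhere, in anti-PD1-experiment low dose replicate 2, where Ighv12-3 had 11.

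**Figure D1:**
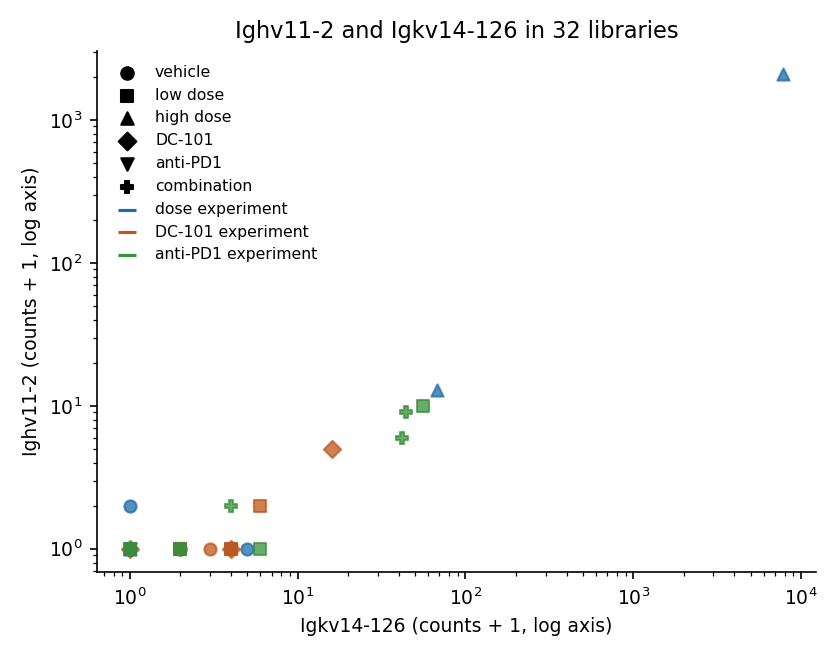
Counts of Ighv11-2 (y axis, count + 1, log scale) against Igkv14-126 (x axis, count + 1, log scale), 1 point per library, coloured by experiment. High dose replicate 2 lies alone at 7827 and 2080 counts, and most libraries lie at or near 0 for both genes.

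The same library also carried RNA of fat tissue. On a list of 10 adipocyte genes chosen after the counts were seen, 9 were higher in it, in CPM (counts scaled to a common library total), than in any other library. Adipoq (adiponectin) had 2080 counts there, 0 in 27 other libraries and at most 25 in the rest. Lep (leptin) had 91 there and 0 in all 31 others, and Plin1, a lipid droplet coat protein, had 1249 against at most 4. The list summed to 973 CPM in this library and to 20.0 to 158 (median 48.6) in the others. Of 8 mesothelial genes, the lining of the body cavities, 5 were highest there, but their sum of 302 CPM was below the 499 CPM of anti-PD1-experiment vehicle replicate 3. Their part in the variable-gene counts of this library was not tested.

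More genes were read in libraries with more counts, as a loose trend. Between 13 and 123 of the 123 genes had a count (median 55.5 per library), from 13 genes in 15 counts in DC-101-experiment vehicle replicate 4 to all 123 in high dose replicate 2. High dose replicate 1 read 117 genes in 2031 counts, combination replicate 3 read 113 in 2770 and anti-PD1-experiment low dose replicate 3 read 105 in 3133. None of the 123 genes was read in every library. The most widespread was Iglv1, read in 31 of 32, followed by Igkv10-96, Igkv1-110 and Igkv1-135 in 28 each. Only 10 genes were read in 24 libraries or more, and the median gene was read in 16.

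How far the top gene dominated was compared in the 20 libraries with at least 100 counts, since a share of fewer counts is too imprecise. In them the top gene held 5.51% to 25.4% of the counts. The lowest value belonged to high dose replicate 1, where Igkv8-30 led among 2031 counts (95% exact binomial interval 4.56% to 6.60%, which covers counting error only). The highest belonged to dose-experiment low dose replicate 1, where Igkv12-41 had 43 of 169 counts (interval 19.1% to 32.7%). High dose replicate 2 came next with Igkv14-126 at 21.7% (21.3% to 22.1%), then DC-101-experiment low dose replicate 3 with Iglv3 at 17.8%, 27 of 152 counts (12% to 24.8%). The intervals of low dose replicate 1 and high dose replicate 2 overlapped, and both lay above that of high dose replicate 1. The 5 leading genes of a library together held 21% (DC-101 replicate 3) to 53.3% (dose-experiment low dose replicate 1).

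The leading gene changed from tumour to tumour. Over the 32 libraries 21 different genes led, with 2 libraries in which 2 or 3 genes tied at 2 or 3 counts. Igkv14-126 and Igkv8-27 each led 3 libraries, and no gene led more. In the low dose group of the anti-PD1 experiment, Igkv12-44 led replicate 1 (81 of 648 counts), Igkv14-111 replicate 2 (92 of 899) and Igkv10-96 replicate 3 (457 of 3133). In the combination group, Igkv6-25 led replicate 1 (30 of 464), Igkv14-126 replicate 2 (43 of 405) and Iglv2 replicate 3 (316 of 2770). No 2 of these 6 libraries had the same top gene.

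**Figure D2:**
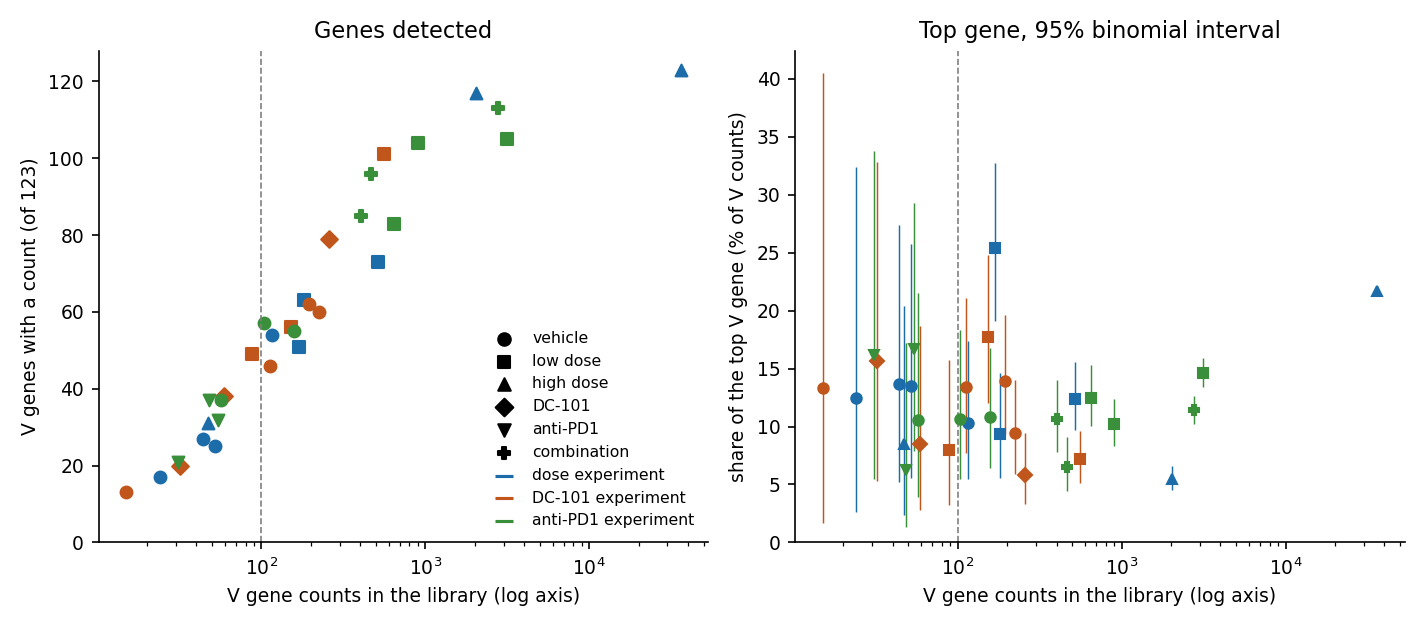
Left, number of the 123 variable genes with a count (y axis) against variable-gene counts (x axis, log scale), 1 point per library. Right, share of counts in the library's top gene (y axis, percent) with its 95% exact binomial interval against the same counts, with a dashed line at 100 counts. The gene number rises with the counts up to 123, while above 100 counts the top share ranges from 5.51% to 25.4%.

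Some genes were read mostly in 1 tumour other than high dose replicate 2. Igkv8-34 (chr6:70044112-70044678) had 264 of its 273 counts in combination replicate 3, 8 in high dose replicate 2 and 1 in high dose replicate 1. It was the second gene of combination replicate 3 after Iglv2, ahead of Igkv3-2 with 193 counts and Ighv7-3 with 152. Ighv8-11 had 121 of 175 counts (69.1%) in anti-PD1-experiment low dose replicate 3. Of the 17 genes whose highest library was not high dose replicate 2, 9 peaked in that low dose library and 5 in combination replicate 3.

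Weighting the 20 libraries with at least 100 counts equally, Igkv10-96 had the highest mean share of the counts, 4.94% ± 4.60 (SD, n = 20), with a range from 0 to 17.8%. Iglv1 followed with 3.26% ± 2.35 and was read in all 20. Igkv14-126 had a mean of 2.85% but a median of 0.833%, since high dose replicate 2 (21.7%) and combination replicate 2 (10.6%) raised it. Igkv14-111 (2.50%), Igkv1-110 (2.38%), Igkv1-135 (2.35%), Iglv2 (2.23%), Igkv19-93 (2.18%) and Igkv1-117 (2.11%) came next, each with an SD of more than 1.4 percentage points. By family, the 16 Igkv4 genes held 10.5% ± 4.77 and the 15 Ighv1 genes 6.37% ± 3.98, although Ighv1 is the largest family in the tables with 93 genes. Iglv1 and Iglv2 differed in where they were read. Iglv2 had 316 counts against 69 of Iglv1 in combination replicate 3, whereas Iglv1 had 74 and 76 against 6 and 10 of Iglv2 in anti-PD1-experiment low dose replicates 3 and 2.

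**Figure D3:**
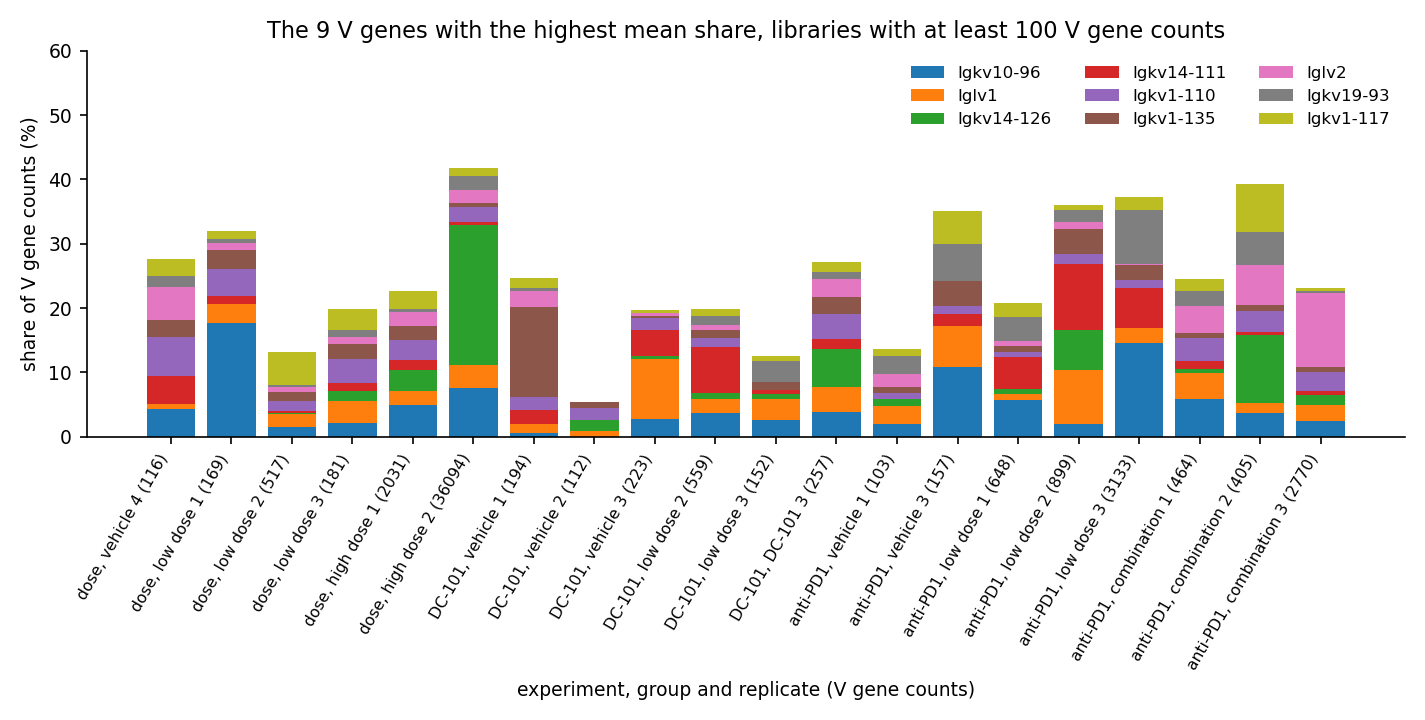
Share of variable-gene counts (y axis, percent) in the 9 genes with the highest mean share, stacked, for the 20 libraries with at least 100 counts. The order and size of the segments differ from library to library, with Igkv14-126 at 21.7% in high dose replicate 2 and Igkv10-96 at 17.8% in dose-experiment low dose replicate 1.

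The summed level of the 123 genes, in CPM of the library total scaled by TMM, was higher under low dose regorafenib than under vehicle over the 3 experiments. In the dose experiment the vehicle libraries held 1.07, 2.46, 2.03 and 4.66 CPM and the low dose libraries 6.40, 19.1 and 7.32, with no overlap. In the DC-101 experiment the vehicle libraries held 8.04, 4.14, 10.3 and 0.634 CPM and the low dose libraries 3.82, 23.7 and 8.07, and the groups overlapped. In the anti-PD1 experiment the vehicle libraries held 4.24, 2.87 and 6.94 CPM and the low dose libraries 24.4, 47.5 and 144, with no overlap. The mean difference on the log2(CPM + 1) scale was 1.69 in the dose, 0.924 in the DC-101 and 3.37 in the anti-PD1 experiment, or 2.0 over all 3, and 8 of 9 low dose libraries lay above the vehicle mean of their experiment. The test was made on all 348 variable genes, which the count sum did not select. Their difference was 2.02 (9 low dose and 11 vehicle libraries, exact 2-sided permutation test within experiments, p = 0.00131, adjusted over 5 measures 0.00653). The question of low dose against vehicle was raised with earlier results of these data known, so this p is not independent evidence. Leaving out any single library gave differences of 1.77 to 2.19 for the 123 genes.

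The high dose group was the least uniform. Its libraries held 113, 1389 and 1.95 CPM, so that replicate 1 and replicate 2 lay above every vehicle and low dose library of the experiment while replicate 3 lay among the vehicle libraries. The mean difference from vehicle was 4.54 on the log2(CPM + 1) scale and 2.46 without high dose replicate 2. DC-101 libraries held 1.33, 2.46 and 12.9 CPM, overlapped the vehicle libraries and differed from them by -0.16 on that scale, a sign that turned in 4 of 7 repeats with a library left out (-0.93 to 0.36).

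In the anti-PD1 experiment the libraries with regorafenib lay above those without it. The anti-PD1 libraries held 2.46, 1.58 and 2.7 CPM, all below the 3 vehicle libraries, although over all 348 variable genes the groups overlapped (1.48 to 2.05 against 1.95 to 3.11 as log2(CPM + 1)). The combination libraries held 20.3, 15.7 and 120 CPM, all above both groups without regorafenib and overlapping the low dose libraries. The mean CPM of low dose was 15.4-fold that of vehicle, that of the combination 23.2-fold that of anti-PD1, and that of anti-PD1 0.480-fold that of vehicle. Single libraries weighed on these folds, which were 7.68 for low dose without its replicate 3 and 8.02 for the combination without its replicate 3. Regorafenib against none, within the arms without and with anti-PD1, gave a difference of 3.41 on the log2(CPM + 1) scale, higher in 6 of 6 libraries. Over all 348 variable genes it was 3.40 (exact 2-sided permutation test, p = 0.005, the smallest of 400 arrangements, adjusted over 5 measures 0.025), a comparison added after the data were seen. Anti-PD1 against none gave -0.72, lower in 5 of 6 libraries, and over all 348 genes -0.71 (p = 0.245, exact permutation test, adjusted 0.75). It moved to -1.17 without combination replicate 3. With 3 libraries a side a 2-sided exact permutation test cannot go below 0.1, and with 3 against 4 not below 0.057, so single pairs of groups are given as values only.

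**Figure D4:**
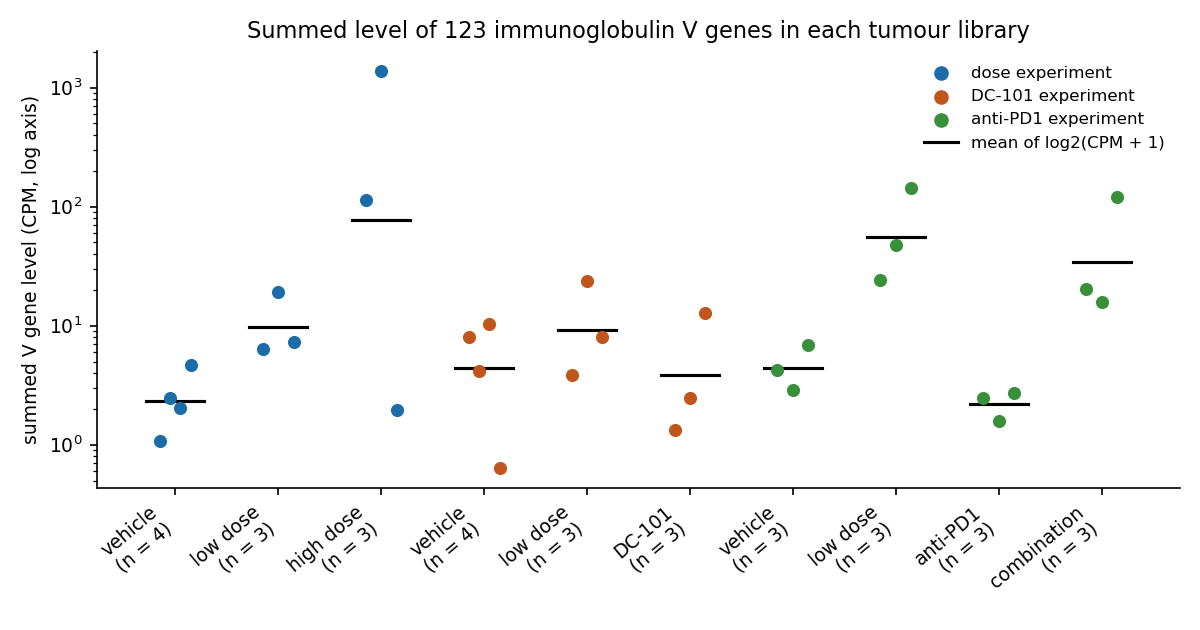
Summed CPM of the 123 variable genes (y axis, log scale) in each library, by group, coloured by experiment, with the black line at the back-transformed mean of log2(CPM + 1). The 6 regorafenib libraries of the anti-PD1 experiment lie between 15.7 and 144 CPM, above the 6 others at 1.58 to 6.94, and high dose replicate 2 lies at 1389.

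Markers of other cells also differed between groups, and not all of them in the direction of the level. Of the 5 measured red cell genes, 4 in the dose and 5 in the anti-PD1 experiment were lower under low dose than under vehicle at an unadjusted p under 0.05, and none passed the adjusted threshold. Of 16 hepatocyte genes, all were higher under low dose in the dose experiment (median log2 change 1.53, none at an unadjusted p under 0.05), all were higher in the DC-101 experiment (median 3.18, 2 at an unadjusted p under 0.05) and 15 were lower in the anti-PD1 experiment (median -1.77, 7 at an unadjusted p under 0.05). All 13 T cell genes were higher under low dose over the 3 experiments (median 0.66, 4 at an unadjusted p under 0.05). For low dose against vehicle, 4.94% of all genes in the dose, 17.1% in the DC-101 and 11.8% in the anti-PD1 experiment were at that limit. Over the 3 experiments the share was 16%, each time in either direction. The hepatocyte count of the DC-101 experiment was thus near the share over all genes. For the combination against anti-PD1, 15 of 16 hepatocyte genes (median 2.54) and 8 of 13 T cell genes (median 1.75) were higher at an unadjusted p under 0.05. For anti-PD1 against vehicle, 15 of 16 hepatocyte genes (median -2.26) and 5 of 5 red cell genes (median -2.55) were lower at that limit. None of these genes passed the adjusted threshold. Over all genes, 8.68% and 13.7% were at the unadjusted limit in these 2 comparisons, in either direction. The summed level of the adipocyte list was lower under low dose than under vehicle with no overlap in each experiment: 21.1 to 40.5 against 42.7 to 68.3 CPM in dose, 26.6 to 37.2 against 51.1 to 86.7 in DC-101 and 34.6 to 50.7 against 70.5 to 158 in anti-PD1. Outside high dose replicate 2, Adipoq, Plin1, Lep, Retn and Cfd had a median of 0 counts. The largest medians of the list there were those of Fabp4 (676) and Lipe (237), so its sum need not follow fat tissue. How often lists chosen after the counts were seen do not overlap was not tested. The part of all these markers in the variable-gene level was not tested.

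Diversity was measured in the libraries with at least 100 counts, which left 8 low dose and 6 vehicle libraries, 2 of the 3 high dose, 1 DC-101, no anti-PD1 and all 3 combination libraries. In 100 counts drawn from a library, 37.4 to 55.9 genes were expected (median 44.8). The lowest was dose-experiment low dose replicate 2 and the highest anti-PD1-experiment vehicle replicate 1. The effective number of genes, the inverse of the chance that 2 counts come from the same gene, ran from 9.90 (dose-experiment low dose replicate 1) to 53.5 (DC-101 replicate 3), with a median of 28. High dose replicate 1 and replicate 2 had 47.3 and 15.5 effective genes. Tests over the 3 experiments did not separate low dose from vehicle libraries by any of these measures. The differences were -3.48 genes per 100 counts, -5.38 effective genes, 2.43 percentage points in the top gene's share and -2.27 percentage points in the share of heavy chain genes. At a minimum of 200 counts only 1 low dose and 1 vehicle library remained to compare, both of the DC-101 experiment, and all 4 differences had the opposite sign. Over all 348 genes the exact 2-sided permutation p-values were 0.385, 0.515, 0.44 and 0.62, each 0.62 after adjustment over 5 measures. The signs were not the same in every experiment: the difference in genes per 100 counts was -8.75 in the dose, 5.70 in the DC-101 and -7.38 in the anti-PD1 experiment. In the dose experiment the 3 low dose libraries held 37.4 to 47.4, below the 1 vehicle library at 49.7. In the DC-101 experiment the 2 low dose libraries held 45.1 and 52.1, above the 3 vehicle libraries at 41.1 to 44.8. In the anti-PD1 experiment the 3 low dose libraries held 41.3 to 43.9, below the 2 vehicle libraries at 44.9 and 55.9. Effective genes were likewise lower with no overlap in the dose and anti-PD1 experiments, but overlapped in the DC-101 experiment. With no anti-PD1 library deep enough, anti-PD1 could be compared only on top of low dose. The combination libraries had 2.52 more genes per 100 counts than low dose alone (SD 5.82 and 1.51, n = 3 each), 7.45 more effective genes (SD 12.5 and 3.04) and a top share lower by 2.94 percentage points (SD 2.65 and 2.18), and the groups overlapped in all 3 measures. A 2-sided exact permutation test of 3 against 3 cannot pass 0.05.

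Shares of the genes were compared between tumours. Among the 10 libraries with at least 400 counts, the Morisita-Horn similarity, which is 1 for identical shares and 0 for none in common, had a median of 0.430 over 45 pairs. It was highest (0.722) between high dose replicate 2 and combination replicate 2, the 2 libraries in which Igkv14-126 led with the largest shares.

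Gene by gene, few of the 123 genes had enough counts for a test across all genes. A filter on low counts (minimum count 10) kept 9 of them in the dose, 1 in the DC-101 and 22 in the anti-PD1 experiment, and none in the fit of low dose against vehicle over all 3. A gene that passed only through the group where it was high had to differ, so the genes tested do not speak for all 123, and the counts of called genes below are descriptions that cannot be read against the shares over all genes printed beside them. Under high dose against vehicle 4 of the 9 rose (edgeR quasi-likelihood test, Benjamini-Hochberg adjusted p under 0.05), where 15.6% of 16525 genes were called in either direction and 8.8% higher. Igkv10-94 had 0, 0, 0 and 1 counts in the vehicle and 104, 1081 and 1 in the high dose libraries (log2 change 9.93 ± 2.23 SE, adjusted p = 0.0356 in edgeR). Igkv10-96 had 0, 3, 1 and 5 against 99, 2748 and 3 (8.44 ± 1.97, adjusted p = 0.0370 in edgeR). Igkv1-117 had 1, 2, 0 and 3 against 58, 401 and 3, and Igkv8-30 had 0, 1, 4 and 2 under vehicle against 5.51% of the 2031 variable-gene counts of high dose replicate 1 and 356 and 0 counts in replicates 2 and 3 (adjusted p = 0.0376 and 0.0484 in edgeR). In each of the 4, high dose replicate 3 lay among the vehicle libraries. None of the 4 stayed called without high dose replicate 1, without replicate 2 or without any single vehicle library, while their log2 changes stayed positive, for Igkv10-94 between 7.55 and 11.6 and for Igkv10-96 between 4.79 (without high dose replicate 2) and 9.09. Calls over all genes fell at the same time, from 15.6% to between 0.091% and 0.506% without a vehicle library, to 5.65% without high dose replicate 1 and to 3.19% without replicate 2. Without high dose replicate 3, 57 of the 123 passed the filter and were called, but they passed through the 2 remaining high dose libraries, which the count sum of 50 had favoured, so this count is not a result. DESeq2 called 8 of the 9 (31.9% of all genes). None was called by limma-voom (8.16%) or with scaling to the total count (1.71%).

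Without the filter, edgeR called 1 of the 123 genes in this comparison (Igkv6-32), where 1.34% of all genes were called. The other comparisons called none of the 123 genes with edgeR, where 4.22% of genes were called between high and low dose, 0.0248% between low dose and vehicle of the DC-101 experiment, and 0% for the remaining comparisons within an experiment. Over the 3 experiments 1.77% of genes were called, and none of the 123 was tested there. Under low dose against vehicle in the anti-PD1 experiment, where 16615 genes were tested, 21 of the 22 genes tested were higher at an unadjusted p under 0.05. Over all genes 11.8% were at that limit in either direction. Genes that passed the filter only through the groups where they were high had to differ, so counts at this limit, here and below, cannot be read against such shares. DESeq2 called 4 (2.56% of all genes). Without the filter edgeR called 1 (Igkv12-44), where 0.0302% of all genes were called. Igkv14-111 had the smallest p, with 0, 1 and 3 counts under vehicle and 32, 92 and 192 under low dose (log2 change 6.22 ± 1.17 SE, adjusted p = 0.246 in edgeR). Igkv4-72 followed with 1, 0 and 2 against 31, 12 and 55 (4.84 ± 1.07, adjusted p = 0.246 in edgeR). Neither group of libraries overlapped the other for these genes. For the combination against anti-PD1, 16 of 22 had an unadjusted p under 0.05 (8.68% of all genes) and against vehicle 11 of 22 (8.2%), all higher, and DESeq2 called 7 (1.26% of all genes) and 1 (0.903%). Iglv2 had the smallest p in both, with 19, 25 and 316 counts under the combination, 0, 1 and 1 under anti-PD1 and 2, 0 and 0 under vehicle. Ighv7-3 came second in both, with 1, 22 and 152 counts under the combination.

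Between the combination and low dose alone, 5 of 22 genes had an unadjusted p under 0.05 (3.64% of all genes), 4 lower and 1 higher. Igkv14-111 had 6, 2 and 16 counts under the combination against 32, 92 and 192 (log2 change -3.86 ± 0.97 SE) and Iglv2 19, 25 and 316 against 5, 10 and 6 (3.92 ± 1.12 SE), with an adjusted p = 0.889 for both in edgeR. Against vehicle, anti-PD1 had no gene at an unadjusted p under 0.05 (13.7% of all genes had one), and the smallest p belonged to Igkv4-53 (1, 5 and 0 counts against 0, 0 and 0) and Igkv10-96 (2, 0 and 1 against 2, 5 and 17). In the dose experiment, low dose against vehicle likewise had none at an unadjusted p under 0.05 (4.94% of all genes had one), and the smallest p belonged to Igkv4-53, with 1, 64 and 1 counts against 1, 0, 0 and 2, and to Igkv10-94. High against low dose had 4 of 9 at an unadjusted p under 0.05, all higher (29.3% of all genes), DESeq2 called 3 (18.5% of all genes), and the smallest p belonged to Igkv10-96 and Igkv4-59. In the DC-101 experiment only Iglv1 could be tested. Its counts were 3, 1, 21 and 2 under vehicle, 6, 12 and 5 under low dose and 3, 1 and 10 under DC-101, and its log2 change from vehicle was 0.24 ± 1.05 (SE) under low dose and -0.44 ± 1.11 under DC-101, with no unadjusted p under 0.05.

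Without the filter, 122 of the 123 genes entered the fit of low dose against vehicle over the 3 experiments, and 67 were higher at an unadjusted p under 0.05. Of these, 4 passed the adjusted threshold: Igkv13-85, Igkv12-44, Igkv6-23 and Igkv5-39, which were named after their values were seen. Over all 34455 genes 10.5% had an unadjusted p under 0.05 in either direction and 0.444% passed. The 122 were chosen by count sums that include these libraries and the 34455 were not. Counts without the filter therefore cannot be set against the shares over all genes. Igkv13-85 had 0 counts in 10 of 11 vehicle libraries and 1 in the other, and 2, 2, 3, 0, 0, 1, 35, 1 and 7 in the low dose libraries (log2 change 4.23 ± 0.74 SE, adjusted p = 0.00545 in edgeR). Igkv6-23 had 0 to 3 counts under vehicle and 2, 2, 10, 3, 18, 2, 15, 48 and 6 under low dose (2.98 ± 0.61, adjusted p = 0.0210 in edgeR). The test of whether the low dose change differed between experiments called none of the 122, with 12 at an unadjusted p under 0.05. Over all 34455 genes it also called none, with 5.78% at an unadjusted p under 0.05.

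In the anti-PD1 experiment, 15 of the 123 genes were higher in CPM in all 6 libraries with regorafenib than in all 6 without it, and none was lower in all 6. Of the 33105 genes read in that experiment, 72 (0.217%) were higher in all 6. The 123 were chosen by sums that include these libraries and the 33105 were not, so the counts cannot be set against each other. For Igkv14-126 the closest libraries, low dose replicate 3 and vehicle replicate 1, had 1 count each and differed in library size alone. The 15 were Ighv14-3, Ighv2-6-8, Ighv2-9, Ighv3-1, Ighv5-6, Igkv1-117, Igkv12-44, Igkv14-126, Igkv4-68, Igkv6-15, Igkv6-17, Igkv6-23, Igkv8-19, Igkv8-24 and Iglv2. Igkv8-24 had 5, 5 and 53 counts under low dose and 8, 4 and 10 under the combination, against 0, 3 and 1 under vehicle and 1, 0 and 1 under anti-PD1. Igkv14-126 had 5, 55 and 1 and 3, 43 and 41, against 1, 0 and 0 and 0 in all 3.

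The constant genes, which encode the remainder of each antibody chain and set its class, were read in the same libraries. Over the 3 experiments, 2 of the 7 constant genes tested rose under low dose, where 1.77% of all genes were called: Ighg1, the heavy chain of the class IgG1 (log2 change 3.44 ± 0.60 SE, adjusted p = 0.00420 in edgeR), and Igkc, the kappa constant region (2.28 ± 0.55, adjusted p = 0.0405 in edgeR). Igkc had 22, 36, 46 and 115 counts under vehicle and 139, 552 and 174 under low dose in the dose experiment, with no overlap. In the DC-101 experiment it had 200, 168, 215 and 22 against 95, 627 and 110, and in the anti-PD1 experiment 160, 92 and 226 against 1164, 1524 and 4091. Under high dose against vehicle, 6 of 9 rose (Igha, Ighg1, Ighg2c, Ighm, Igkc and Iglc1), where 8.8% of all genes were called higher and where leaving out any vehicle library lowered the calls over all genes to 0.506% or less. None passed in the anti-PD1 experiment, where all 11 tested were higher under the combination than under anti-PD1 at an unadjusted p under 0.05 (adjusted p = 0.370 for Igkc in edgeR).

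Variable counts were compared with the constant counts of the same chain. For each 100 Igkc counts a library held 27.3 to 98.6 Igkv counts (median 52.6). For each 100 counts of Ighm, the heavy chain of IgM, it held 0.574 to 30.0 Ighv counts (median 3.54). Ighm was read at 1046, 635, 1720 and 1470 counts in the vehicle libraries of the dose experiment, in which all Ighv genes together had 6, 8, 18 and 28. Lambda genes made up 1.35% to 30.8% of the light chain counts in the 20 libraries with at least 100 counts, highest where Iglv3 led, and heavy chain genes 14.8% to 44.3% of all variable-gene counts.

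Among genes of plasma cells, Jchain, which links IgM and IgA units, rose under low dose over the 3 experiments (log2 change 2.19 ± 0.52 SE, adjusted p = 0.0382 in edgeR), as did Xbp1, a factor needed for antibody secretion (0.47 ± 0.11, adjusted p = 0.0323 in edgeR). Sdc1, which also marks epithelial cells, fell by 0.66 ± 0.11 (SE) on the log2 scale (adjusted p = 0.00247 in edgeR), and the other 5 of 8 tested did not pass. Under high dose against vehicle 3 of 10 plasma cell genes rose (Jchain, Mzb1 and Xbp1) and 5 of 12 B cell genes (Blk, Cd22, Cd79a, Pax5 and Pou2af1). In the same comparison 7 of 13 T cell genes rose, and 2 of 16 hepatocyte genes rose, with all 16 higher at an unadjusted p under 0.05 (median log2 change 3.82). Against the 8.8% of all genes called higher, the count of 2 hepatocyte genes was near the background. At an unadjusted p under 0.05, 40.1% of all genes differed in either direction, against all 16 hepatocyte genes. Of the 5 red cell genes, Hbb-bs, a globin, fell and 4 were lower at an unadjusted p under 0.05 (median -2.14). Jchain had 8, 18, 11 and 31 counts under vehicle and 629, 11890 and 16 under high dose, with replicate 3 again among the vehicle libraries. No B cell gene of the 6 tested passed over the 3 experiments. Of the germinal centre list, Mybl1 rose under low dose over the 3 experiments. Of 6 tested genes of the lymphoid attraction list 2 rose under high dose against vehicle (Ccr7 and Ltb). Of the 3 octamer factors, which bind the promoters of variable genes, the coactivator Pou2af1 rose in that comparison, and Pou2f2 fell under high against low dose, where 4.22% of all genes were called. All these calls of high dose against vehicle stand beside 8.8% of genes called higher over the whole table, and they depend on the vehicle libraries: with 1 of them left out, 1 to 29 of all genes were called higher, against 1455 with all 4. Of the 7 genes of recombination and the surrogate light chain, which mark developing B cells, Rag2 and Vpreb2 had no count in any library, Rag1 had 2 counts in 1 and Igll1 at most 3 counts, in 3 libraries. Vpreb1 was read in all 32 libraries (2 to 14 counts), Dntt in 21 (at most 17) and Vpreb3 in 14 (at most 9).

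Across the 32 libraries the level of all 348 variable genes, as log2(CPM + 1), rose with the mean log2 level of 14 B cell genes (Pearson r = 0.943, Spearman rho = 0.905) and of 11 plasma cell genes (r = 0.947, rho = 0.907). Each of these had a permutation p = 1e-05, the smallest that 100000 permutations can give, and at most 2e-05 adjusted over 4 scores. Without the 2 libraries farthest from the median score r was 0.895 for B cells and 0.903 for plasma cells. For B cells r was 0.972 within the dose experiment, 0.823 within the DC-101 experiment and 0.961 within the anti-PD1 experiment, and for plasma cells 0.974, 0.862 and 0.928. Libraries that lay above their own group's mean in the score also did so in the level (r = 0.915 and 0.944 for deviations from group means). With 13 T cell genes r was 0.693 (rho 0.690, permutation p = 1e-05 and 2e-05). With 16 hepatocyte genes it was 0.384 (rho 0.356, permutation p = 0.0309 and 0.046, also after adjustment). Within experiments it was 0.691 in dose (p = 0.0283, permutation), 0.471 in DC-101 (p = 0.169, permutation) and -0.11 in anti-PD1 (p = 0.738, permutation), and without high dose replicate 2 it was 0.329 (p = 0.069, permutation). The libraries share their depth and their mixture of cells, so these relations do not say which cells held the RNA.

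**Figure D5:**
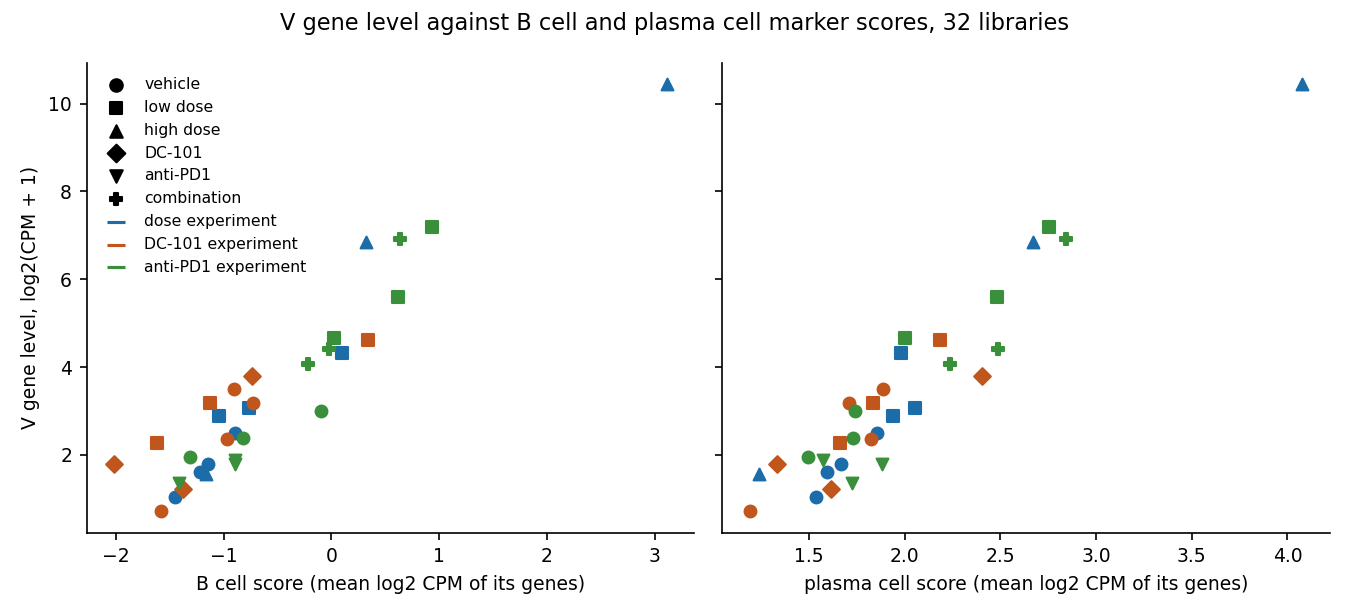
Level of the 123 variable genes (y axis, log2(CPM + 1)) against the mean log2 CPM of the B cell genes (left) and plasma cell genes (right), 1 point per library, colour by experiment and marker by treatment. The level rises with both scores over all 32 libraries, with high dose replicate 2 at the upper right at 10.4.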

How the data were processed

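RNA from 32 whole tumours was made into stranded mRNA libraries, 1 per mouse. The deposited values are raw counts of reads per gene, which the authors made by trimming with cutadapt 2.4, aligning with STAR 2.7.2a to GRCm38 and counting uniquely mapped reads with STAR on Gencode M19. Which strand column was taken is not given in the sources used here. Each library had its own column of counts. Positions and sequences came from Gencode M21, which matched 54409 of 54446 gene identifiers (99.9%) without their version numbers.

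The variable genes, gene lists and comparisons were chosen with earlier results of these data known, and the adipocyte and mesothelial lists after the counts were seen. Groups came from the labels, and each experiment was compared with its own vehicle group. Libraries of a group differed by more than counting noise (chi-square per degree of freedom 12.9 to 834 in 36 comparisons), and each was used as a replicate of its own.

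Single genes were tested with edgeR 4.0.16 (R 4.3.3, TMM scaling, quasi-likelihood test, minimum count 10, Benjamini-Hochberg adjustment over all genes, threshold 0.05), within each experiment and, for low dose against vehicle, over the 3 experiments with the experiment as a term. The test was checked on simulated counts. Total level, heavy chain share, top share and diversity were computed per library with a pseudocount of 1 CPM and at least 100 counts for shares and diversity (Python 3.11.15, numpy 2.4.6, scipy 1.17.1, pandas 2.3.3). Because the count sum of 50 selected the 123 genes, p-values of these measures were taken from all 348 variable genes, by exact permutation within experiments. Relations used 100000 permutations. Figures were drawn with matplotlib 3.10.9.

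The genes named are the 12 with the most counts, the top gene of each library, the Iglv genes, the 3 just inside and the 3 just outside the limit and, per comparison, up to 5 called genes by size of change or, with none called, the 2 with the smallest p. Genes named for being read mostly in 1 tumour, for not overlapping between groups or for passing without the filter were picked after their values were seen.

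Alternatives were DESeq2 1.42.0, limma-voom (limma 3.58.1), other scalings, no filter, the replicate number as a block, a hepatocyte covariate, other minimum depths, pseudocounts and count sums, and leaving out each library. Choosing the genes without high dose replicate 2 or without pseudogenes, and the comparison of regorafenib against none in the anti-PD1 experiment, were added after seeing the data. Same-numbered libraries deviated together (correlation over 0.1) in 2 of 9 dose-experiment pairs, 4 of 9 DC-101-experiment pairs and 6 of 18 anti-PD1-experiment pairs. Pairing by number was therefore not assumed. The result for 1 gene of the germinal centre list is not reported here.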

Additional observations from a re-analysis of the deposited data

How the results depend on the processing

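The higher summed level under low dose over the 3 experiments kept its direction and its side of the threshold under every alternative run, and so did regorafenib against none in the anti-PD1 experiment. With the replicate number as a block the low dose difference was 1.89 on the log2(CPM + 1) scale, and anti-PD1 against none stayed at -0.72 and passed the unadjusted threshold. The libraries share only that number. Leaving out single libraries moved anti-PD1 against none from -1.17 (without combination replicate 3) to -0.38.

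Calls of single genes depended on the method. For high dose against vehicle, 4 genes were called, against 8 with DESeq2, 1 without the filter and 0 each with limma-voom, total count scaling, the replicate block and the hepatocyte covariate. Calls over all genes went from 15.6% to 8.16%, 1.71%, 0.00605% and 0.92% under these 4, and the log2 change of Igkv10-96 was 8.44, and 5.72, 8.39, 7.82 and 8.04 under them. Leaving out 1 library gave 0 to 57, the latter without high dose replicate 3, and 0 to 48 for high against low dose. DESeq2 called 3 for high against low dose, 4 for low dose against vehicle in the anti-PD1 experiment, 1 for the combination against vehicle and 7 against anti-PD1. Without the filter 1 was called for low dose against vehicle in the anti-PD1 experiment and 4 over the 3 experiments. Under high dose against vehicle the median log2 change over all genes was 0.02, and -0.13 with total count scaling.

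Differences in diversity changed sign with the depth asked of a library. With at least 200 counts, 1 low dose library differed from 1 vehicle library by 15.9 genes per 200 counts, 17.6 effective genes, -2.26 percentage points in the top share and 3.74 in the heavy chain share, which is no test. The heavy chain share was 0.17 with the replicate block, and the effective number 0.11 without the dose experiment and -9.29 to 0.11 with 1 library left out. The value of -9.29 passed the unadjusted threshold. With at least 50 counts, which brought in libraries of both arms, anti-PD1 against none came to -0.43 genes per 50 counts, -2.15 effective genes and 1.52 percentage points in the top share, and regorafenib against none to -2.7 in the top share. Genes per 100 counts under regorafenib turned to 0.22 for genes with a count sum of 200, and under anti-PD1 ranged from -0.48 to 5.32 with 1 library left out. DC-101 against vehicle in total level ranged from -0.93 to 0.36. The relation to hepatocyte genes, for the 123 genes, was 0.462 in the DC-101 experiment, -0.10 in the anti-PD1 experiment and 0.328 without high dose replicate 2. The cause of these changes was not tested. Libraries under 100 counts, all 3 under anti-PD1 among them, gave no diversity, and counts of single genes set the limit on every gene-wise test.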
